A study of Sus scrofa with 24 samples.

Results

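The nuclear-encoded genes of oxidative phosphorylation were described in peripheral blood mononuclear cells (PBMNCs) of pigs. Members were the Affymetrix probe sets whose gene symbol in the platform's annotation began with NDUF, SDHA to SDHD, UQCR, ATP5, or COX4 to COX8. The rule found 83 probe sets for 65 genes, of 23999 probe sets and 6765 named genes on the array. It uses symbols and no measured value, but it was chosen with earlier results of these data known. After the lowest 25% of probe sets by mean log2 intensity were set aside, 80 member probe sets were tested, and they still covered all 65 genes. The 3 left out were further probe sets of NDUFAF2, NDUFS6 and ATP5J. The subunits came to 59 genes: 33 of complex I, 4 of complex II, 2 of complex III, 7 of complex IV and 13 of complex V. They were sorted by symbol, so NDUFA4 is counted under complex I throughout. The same prefixes also took in 4 assembly factors (NDUFAF1, NDUFAF2, NDUFAF3 and SDHAF2) and 2 further genes, ATP5S and ATP5SL.

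The study asked how an atherogenic diet, and grape extract or resveratrol given with it, bear on expression in these cells. Each of 6 groups held 4 pigs, 2 females and 2 males, fed for 4 months, and each pig gave 1 array. CT received standard chow. AD received an atherogenic diet that held coconut oil (10%), beef tallow (5.5%) and cholic acid (1%). AD-GE received that diet with grape extract at 1 g per 70 kg of body weight, AD-RES with resveratrol at 18 mg per 70 kg, and AD-GE-RES with an extract enriched to carry the same 18 mg of resveratrol in 1 g. CT-GE-RES received chow with the enriched extract. Animals are numbered within a group, with numbers 1 and 2 female and 3 and 4 male. The sources used here do not state the breed or age. Where a gene has several probe sets they are lettered by mean signal, highest first (SDHA a, SDHA b). A name with no letter stands for the probe set with the highest signal, and no level is set against that of another probe set.

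Complex I (NADH dehydrogenase) and complex II (succinate dehydrogenase, also an enzyme of the tricarboxylic acid cycle) pass electrons to ubiquinone. Complex III passes them on to cytochrome c and complex IV (cytochrome c oxidase) to oxygen, and complex V (ATP synthase) makes ATP from the proton gradient that complexes I, III and IV build. Most subunits are encoded in the nucleus, and all of complex II is. Resting lymphocytes rely largely on this pathway for ATP, while activated ones raise glycolysis.

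PBMNC preparations hold T cells, B cells, NK cells and monocytes, with platelets, red cell precursors and granulocytes as possible carry-over. The listed markers of T cells (7 of 9 genes on the array), B cells (2 of 7), NK cells (3 of 7) and monocytes (4 of 8) were all above the filter. Markers of platelets (6 of 10), erythroid cells (4 of 9) and neutrophils (7 of 9) were measured too, so the label could be checked but purity could not. The 3'/5' ratio of an array, the mean log2 difference between the 3' and the 5' control probe sets of GAPDH, actin and EF1A, is a usual measure of how intact the labelled RNA was. It ran from 1.37 to 4.39, and its group means spanned 1.92 ± 0.23 (SD, n = 4) in AD-RES, 2.19 ± 0.87 in AD and 3.15 ± 1.13 in CT. The array of CT animal 4 stood apart: it had the highest ratio, the lowest T cell marker mean (−1.46 against the mean of all arrays, log2) and the highest means of erythroid (1.84) and neutrophil (2.17) markers. Single markers did not all follow these means. There HBB read 7.94 (8.38 to 8.54 in the other CT animals), while HBE1, ALAS2 and AHSP were at their highest. LCK read 10.35 (10.37 to 10.61 in the other CT animals), while CD3D, CD3G, CD2, CD27 and IL7R were at their lowest. ELANE (4.19) and CHI3L1 (7.74) were not raised, while S100A8, S100A9, S100A12, NPG4 and LTF were at their highest. For the comparisons that use CT, the counts by complex and by gene list, and the single values that moved most, are therefore also given without CT animal 4. RNA was measured in bulk, so fewer cells of a type and less RNA per cell cannot be told apart.

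The members varied little between animals. Within diet and sex, the median residual SD was 0.17 on the log2 scale over 80 member probe sets and 0.22 over all 17999 tested. Among probe sets in the highest 25% of mean signal the medians were 0.15 (62 members) and 0.21 (6000 probe sets), a description with no test. The steadiest members were COX6A1 (residual SD 0.067) and COX6C (0.088), small subunits of cytochrome oxidase, and NDUFAB1 (0.087), the mitochondrial acyl carrier protein. COX6A1 stood between 12.11 and 12.40 and COX6C between 12.37 and 12.75 over all 24 arrays. The least steady were SDHA b (0.50), ATP5L c (0.45), NDUFS3 c (0.45), NDUFS3 b (0.41) and NDUFA10 (0.38).

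**Figure D1:**
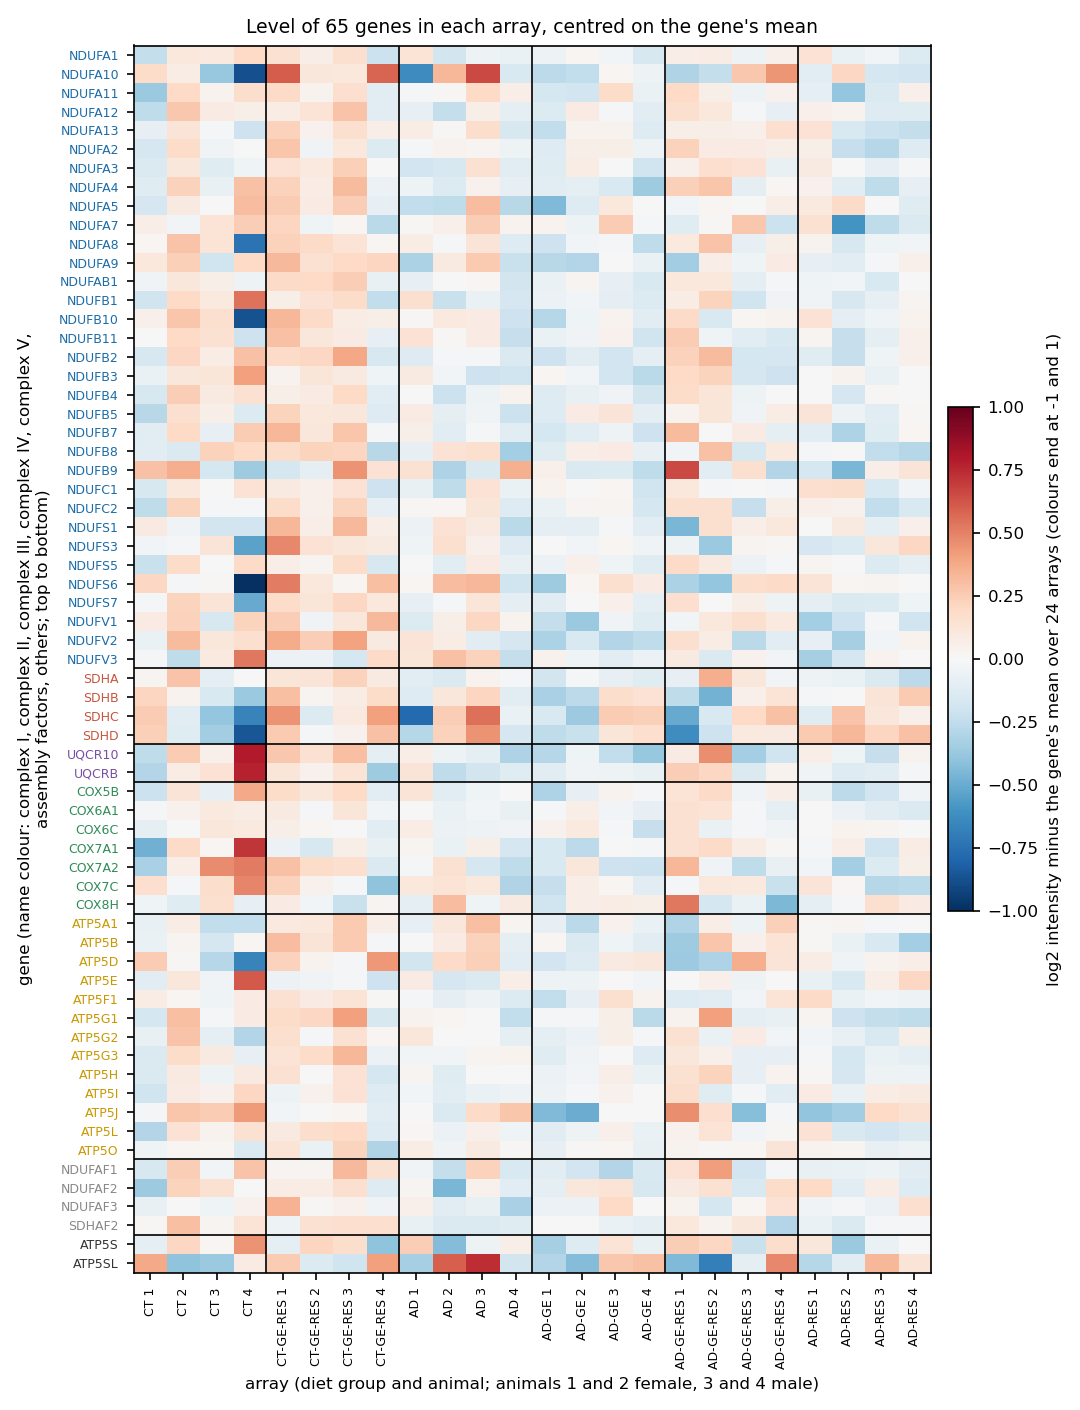
Log2 intensity of each of the 65 genes (rows, the probe set with the highest mean) in each of the 24 arrays (columns, by diet group), minus the gene's mean over all arrays. Most cells are pale; CT animal 4 shows the deepest colours in both directions, with NDUFS6 at 6.34 against 7.67 to 7.88 in the other CT animals, and UQCRB at 11.23.

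No diet comparison called any member. A moderated F test over the 6 groups in limma called 0 of 17999 probe sets at an adjusted p under 0.05 (percent called 0), and 2 of 80 members had an unadjusted p under 0.05, where 9.16% of all probe sets did. Both encode flavin- or iron-binding subunits at the NADH-oxidising tip of complex I: NDUFV2 a (adjusted p = 0.317 in limma) and NDUFV1, which binds FMN and NADH (adjusted p = 0.414 in limma). The next in order were SDHB b, NDUFB7, NDUFA4 and SDHA a, with limma adjusted p-values between 0.553 and 0.574.

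NDUFV2 a read 9.54, 9.92, 9.72 and 9.77 in CT and 9.98, 9.86, 10.01 and 9.70 in CT-GE-RES. In AD it read 9.74, 9.69, 9.50 and 9.44, and in AD-GE 9.29, 9.46, 9.32 and 9.36. In AD-GE-RES it read 9.77, 9.69, 9.34 and 9.51, and in AD-RES 9.53, 9.28, 9.58 and 9.65. By group mean the CT-GE-RES animals were thus the highest and the AD-GE animals the lowest, a ranking made after the values were seen. NDUFV1 read 8.02, 7.89, 8.22 and 8.14 in AD-GE and 7.92, 8.05, 8.25 and 8.06 in AD-RES. In AD it read 8.12, 8.32, 8.46 and 8.29, in AD-GE-RES 8.23, 8.37, 8.42 and 8.36, in CT 8.34, 8.49, 8.10 and 8.48, and in CT-GE-RES 8.51, 8.23, 8.37 and 8.58. AD-GE and AD-RES were the lower groups, and both overlapped AD. For NDUFV2 b and NDUFV2 c, differences in the 5 diet comparisons lay between −0.09 and 0.15.

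**Figure D2:**
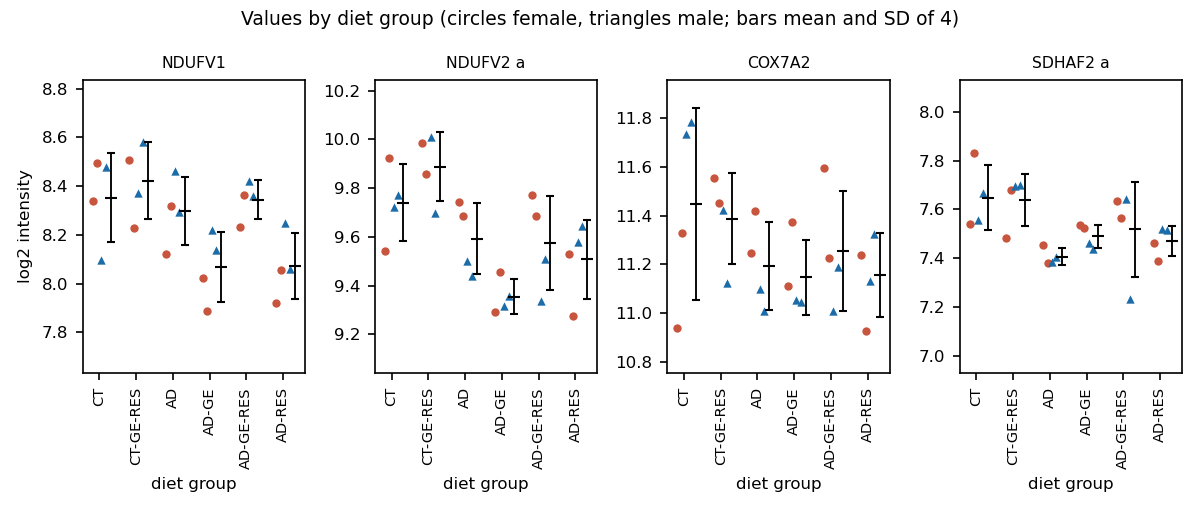
Log2 intensity (vertical axis) of NDUFV1, NDUFV2 a, COX7A2 and SDHAF2 a in each animal by diet group (horizontal axis), with circles for females, triangles for males and bars for the mean and SD of 4 animals. NDUFV1 is lower in AD-GE and AD-RES, NDUFV2 in AD-GE, and the 2 male CT animals are the highest for COX7A2.

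A fixed panel of subunits from each complex, core and accessory, had 20 genes on the array. UQCRC1, UQCRC2, UQCRFS1, COX4I1 and COX5A were among those not analysed here. In complex I, NDUFS1, the largest iron-sulfur subunit, had group means from 7.88 ± 0.13 (SD, n = 4) in CT to 8.16 ± 0.15 in CT-GE-RES, and NDUFB8, a membrane-arm subunit whose protein is often used to gauge assembled complex I, from 10.35 ± 0.15 in AD-RES to 10.57 ± 0.24 in CT-GE-RES. NDUFA4, long listed under complex I and now assigned to cytochrome oxidase, ran from 10.93 ± 0.12 in AD-GE to 11.24 ± 0.17 in CT-GE-RES. In complex II, SDHA, the flavoprotein (SDHA a), ran from 9.42 ± 0.10 in AD-RES to 9.69 ± 0.06 in CT-GE-RES, and SDHB, the iron-sulfur subunit (SDHB a), from 10.86 ± 0.28 in AD-GE-RES to 11.14 ± 0.12 in CT-GE-RES. The membrane anchors SDHC (8.41 ± 0.40 to 8.84 ± 0.27) and SDHD (10.26 ± 0.46 to 10.80 ± 0.05) were lowest in CT. SDHC was highest in CT-GE-RES and SDHD in AD-RES. The CT means were 8.55 ± 0.32 (SD, n = 3) and 10.45 ± 0.30 without CT animal 4, and SDHD was then lowest in AD-GE-RES.

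UQCRB, a ubiquinone-binding subunit of complex III, had its highest mean in CT (10.63 ± 0.44) and its lowest in AD (10.35 ± 0.17). Without CT animal 4, at 11.23, the CT mean was 10.43 ± 0.23 (SD, n = 3) and no longer the highest. In complex IV, group means spanned 12.17 to 12.30 for COX6A1, 12.57 to 12.63 for COX6C, 11.84 to 12.07 for COX5B, 11.15 to 11.45 for COX7A2, 11.31 to 11.62 for COX7C and 5.21 to 5.43 for COX7A1, the isoform known from heart and muscle. In complex V, the catalytic core subunits ATP5A1 (alpha) and ATP5B (beta) spanned 11.65 to 11.90 and 11.18 to 11.48. The 3 genes for the proton-carrying c subunit, ATP5G1, ATP5G2 and ATP5G3, spanned 10.17 to 10.50, 11.04 to 11.16 and 11.81 to 12.05. Every panel gene had a limma adjusted p of at least 0.414 in the F test.

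AD against CT asks what the atherogenic diet did. In this comparison 0 of 80 members passed the test and 0% of all probe sets did. Differences of the members lay between −0.42 and 0.52, with 28 higher and 52 lower in AD (50.4% of all probe sets were higher) and a median of −0.055, where the median of all probe sets was 0.0017. The mean of the T cell markers, centred on all arrays, was −0.50 ± 0.72 (SD, n = 4) in CT and −0.070 ± 0.26 in AD, that of platelet markers 0.54 ± 0.90 and −0.29 ± 0.78, and that of erythroid markers 0.36 ± 1.09 and −0.13 ± 0.74. The part of these in the differences was not tested. A fit that included the 3'/5' ratio gave 30 members higher and 50 lower, a median of −0.026 and 1 member with an unadjusted p under 0.05. The share of all probe sets in that fit is not given here. Without CT animal 4 there were 29 higher (50.8% of all probe sets) and 51 lower, and the median was −0.033. In that fit 1 member, SDHAF2 a, had an unadjusted p under 0.05, where 947 of 17999 probe sets had one. At an unadjusted p under 0.05 there were 4 members, all lower in AD, where 6.38% of all probe sets reached that. The 95% interval of the difference stayed within 0.5 of 0 on the log2 scale for 73.8% of member probe sets.

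SDHAF2 a, of a gene whose product helps attach FAD to SDHA, read 7.45, 7.38, 7.38 and 7.41 in AD and 7.54, 7.83, 7.56 and 7.67 in CT. The groups did not overlap, and the difference was −0.24 (SE 0.10, adjusted p = 0.757 in limma). Without CT animal 4 it was −0.23, within females −0.27 and within males −0.22. SDHAF2 b differed by −0.02. SDHB b read 8.99, 8.94, 8.79 and 8.85 in AD and 9.11, 9.10, 8.99 and 9.29 in CT, with a difference of −0.23 (SE 0.11), while SDHB a differed by 0.09. The highest AD and the lowest CT value of SDHB b were both 8.99 at this rounding. These were the 2 members of 80 whose groups did not overlap, where 2.74% of all probe sets did not.

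NDUFB3, an accessory subunit of the complex I membrane arm, was lower by both of its probe sets, at −0.23 (SE 0.11) for NDUFB3 a and −0.24 (SE 0.11) for NDUFB3 b, with a limma adjusted p of 0.757 for each. Within males NDUFB3 b differed by −0.48 and within females by −0.01, and without CT animal 4 it differed by −0.17. The members with the smallest p among those higher in AD were ATP5A1 (0.21, SE 0.11), ATP5L b (0.30, SE 0.18), SDHD (0.33, SE 0.20) and NDUFS6 (0.40, SE 0.24), none of which passed the test. SDHD and NDUFS6 both read lowest in CT animal 4, at 9.67 and 6.34. Without that animal the differences were 0.16 for ATP5A1, 0.16 for ATP5L b, 0.11 for SDHD, 0.03 for NDUFS6, −0.11 for NDUFB3 a and −0.17 for SDHB b. Both genes of complex III were lower (UQCRB −0.28, UQCR10 −0.31) and so were 6 of 7 of complex IV, with a median of −0.094. In complex II 3 of 4 were higher by their highest probe set, with a median of 0.15. Without CT animal 4, UQCRB and UQCR10 differed by −0.07 and −0.08, complex IV had 3 higher and 4 lower with a median of −0.012, and complex II had 2 higher and 2 lower with a median of −0.0054.

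**Figure D3:**
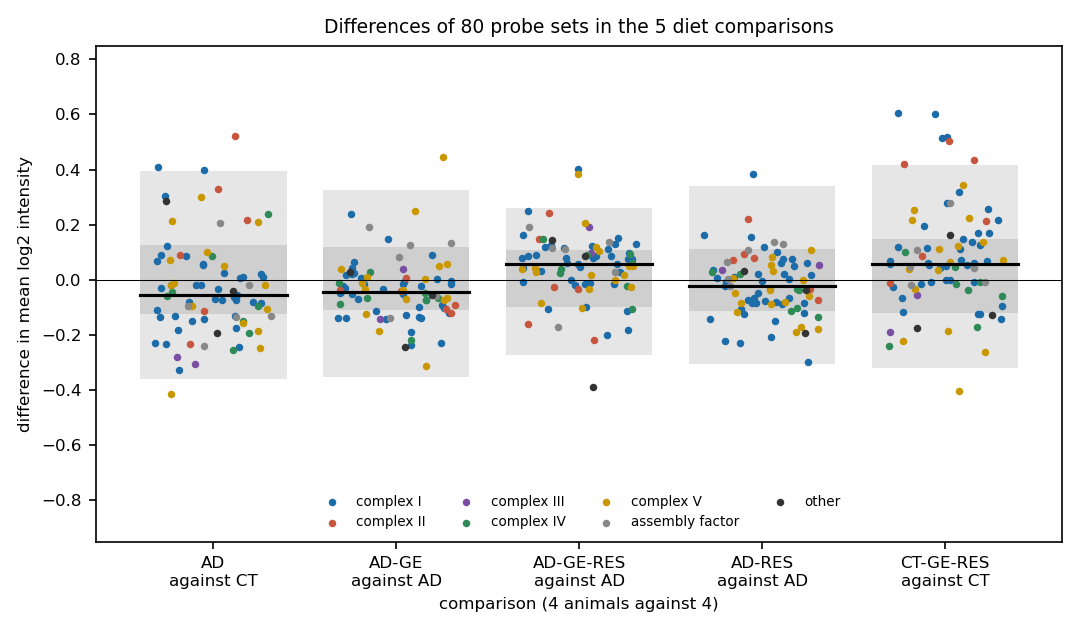
Difference in mean log2 intensity (vertical axis) of the 80 member probe sets in the 5 diet comparisons (horizontal axis, 4 animals against 4), coloured by complex, with a black line at the members' median. The pale and darker grey bars span the central 90% and 50% of all 17999 probe sets; most members lie inside, and the medians run from −0.055 in AD against CT to 0.059.

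AD-GE against AD asks what grape extract did on the atherogenic diet; it and the next pair of comparisons share the 4 AD animals, so their values are not independent. It called 0 of 80 members and 0% of all probe sets. Of the members 25 were higher (51.4% of all probe sets) and 55 lower, with a median of −0.043 (0.0065 over all probe sets). After quantile normalization was repeated on the deposited values, 40 were higher and 40 lower. There were 2 with an unadjusted p under 0.05, where 6.09% of all probe sets did, and none had groups that did not overlap, where 4.72% did. They were NDUFV1 (−0.23, SE 0.11, adjusted p = 0.806 in limma) and NDUFV2 a (−0.24, SE 0.11, adjusted p = 0.814), whose values stand above. Within females and males NDUFV1 differed by −0.26 and −0.20, and NDUFV2 a by −0.34 and −0.13. With the mean levels of T cell, monocyte and platelet markers in the fit, the values were −0.13 for NDUFV1 and −0.21 for NDUFV2 a. The monocyte marker mean ran from −0.79 to 0.18 in AD-GE and from −0.063 to 0.95 in AD, and neutrophil markers averaged −0.36 ± 0.65 (SD, n = 4) and 0.54 ± 0.66. Neutrophil markers were in no fit, and their part in any difference was not tested. The part of monocyte markers in the other differences was not tested.

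ATP5J, coupling factor 6 of the ATP synthase stalk, followed with −0.31 (SE 0.17). It read 8.53, 8.48, 8.97 and 8.97 in AD-GE and 8.96, 8.83, 9.16 and 9.25 in AD. The females were the lower animals in both groups. ATP5A1 differed by −0.19 (SE 0.11). The members with the smallest p among those higher were SDHAF2 b (0.19), ATP5L c (0.45, SE 0.30), NDUFV2 b (0.15), against the direction of NDUFV2 a, and NDUFAF3, a complex I assembly factor (0.13). By gene, complex I had 6 higher and 27 lower, complex IV 1 and 6, and complex V 4 and 9.

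AD-GE-RES against AD asks the same of the resveratrol-enriched extract. It called 0 of 80 members and 0% of all probe sets. Here 56 members were higher (52.4% of all probe sets) and 24 lower, with a median of 0.059 (0.0089 over all probe sets), and the counts after repeated quantile normalization were again 56 and 24. A single member had an unadjusted p under 0.05, where 2.40% of all probe sets did: SDHB b read 8.89, 9.28, 9.08 and 9.31 in AD-GE-RES against 8.99, 8.94, 8.79 and 8.85 in AD (0.24, SE 0.11, adjusted p = 1.000 in limma). SDHB a differed by −0.16. NDUFA1 b, of a small membrane subunit of complex I, ran from 5.91 to 6.63 in AD-GE-RES and read 5.70, 5.69, 5.88 and 5.73 in AD. Its groups did not overlap (0.40, SE 0.21), as was so for 1 other member, NDUFA2 (0.11), and for 1.26% of all probe sets. NDUFA1 a differed by 0.08.

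The next values on the higher side were NDUFA3 (0.15, SE 0.10) and SDHA a (0.15, SE 0.10). The members with the smallest p among the lower ones were ATP5SL (−0.39, SE 0.25), now known as an assembly factor of complex I, NDUFAF1 b (−0.17), SDHB a (−0.16) and SDHD (−0.22, SE 0.20). By gene, complex I had 23 higher and 10 lower, complex IV 5 and 2, and complex V 8 and 5. For complex II the split was 1 higher and 3 lower. The 95% intervals stayed within 0.5 of 0 for 82.5% of member probe sets. By 3'/5' ratio, AD-GE-RES arrays averaged 2.69 ± 1.24 (SD, n = 4) against 2.19 ± 0.87 for AD arrays. T cell markers averaged −0.075 ± 0.73 against −0.070 ± 0.26, and ran from −0.82 to 0.60 over the AD-GE-RES animals. ATP5SL, SDHB a and SDHD were called below as falling as the ratio rose, and NDUFA1 b as rising. No other member named for this comparison had a called slope. How far the ratio or cell makeup bears on these differences was not tested.

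AD-RES against AD asks what resveratrol alone did on that diet. It called 0 of 80 members and 0% of all probe sets, with 37 higher (49.4% of all probe sets) and 43 lower and a median of −0.024 (−0.0024 over all probe sets, and 0.0040 for the members after repeated quantile normalization, the opposite sign). The limma tests gave 2 members an unadjusted p under 0.05, where 4.45% of all probe sets had one. NDUFV1 differed by −0.23 (SE 0.11, adjusted p = 0.980), with −0.23 within females and −0.22 within males, and by −0.09 with the 3 marker means in the fit. NDUFA7, an accessory subunit of complex I, differed by −0.30 (SE 0.14, adjusted p = 0.980). No member had groups that did not overlap, where 2.81% of all probe sets did.

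Other complex I values on the lower side in AD-RES were NDUFA11 (−0.21, SE 0.12) and NDUFV3 (−0.22, SE 0.14). On the higher side stood NDUFS3 c (0.38, SE 0.29), with AD-RES animal 1 at 5.17 and the others at 4.47 to 4.52, then NDUFAF3 (0.13), ATP5I, a subunit of the ATP synthase membrane part (0.11), and NDUFA5 (0.16). By gene, complex I had 13 higher and 20 lower, complex IV 2 and 5, and complex V 4 and 9.

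CT-GE-RES against CT asks what the enriched extract did on standard chow; CT also served as the control of AD. It called 0 of 80 members and 0% of all probe sets. Of the members 50 were higher (52.3% of all probe sets) and 30 lower, with a median of 0.059 (0.0094 over all probe sets); after repeated quantile normalization the split was 42 and 38. There were 7 members with an unadjusted p under 0.05, all higher, where 6.80% of all probe sets had one, and none had groups that did not overlap (4.03% of all). They were NDUFA10 (0.60, SE 0.25), NDUFS3 a (0.32, SE 0.14) and NDUFS3 b (0.60, SE 0.27), ATP5A1 (0.25, SE 0.11), NDUFS1 (0.28), NDUFS6 (0.52) and SDHD (0.42), each with a limma adjusted p of 0.700.

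NDUFA10, an accessory subunit of complex I related to nucleoside kinases, read 8.09, 7.59, 7.59 and 8.07 in CT-GE-RES and 7.67, 7.56, 7.10 and 6.60 in CT. NDUFS3, a core iron-sulfur protein subunit, read 9.96, 9.62, 9.59 and 9.57 as NDUFS3 a against 9.45, 9.47, 9.61 and 8.94 in CT. As NDUFS3 b it read 7.73, 7.47, 7.21 and 7.54 against 7.33, 7.06, 7.30 and 5.83. CT animal 4 was the lowest array in each. Without it the differences were 0.37 for NDUFA10, 0.17 and 0.22 for NDUFS3 and 0.20 for ATP5A1. In that fit 0 members had an unadjusted p under 0.05, where 495 of 17999 probe sets had one. In a fit that included the 3'/5' ratio the differences were 0.28, 0.21, 0.30 and 0.21. Again 0 members had an unadjusted p under 0.05, and the share of all probe sets there is not given here. T cell markers averaged 0.24 ± 0.32 (SD, n = 4) in CT-GE-RES against −0.50 ± 0.72 in CT, neutrophil markers −0.40 ± 0.41 against 0.62 ± 1.03, and erythroid markers −0.52 ± 0.78 against 0.36 ± 1.09. Without CT animal 4 the CT means were −0.18, 0.11 and −0.13. The part of these markers in the differences was not tested.

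The members with the smallest p among those lower in CT-GE-RES were ATP5I b (−0.40, SE 0.20), ATP5E, the epsilon subunit of ATP synthase (−0.22, SE 0.12), COX7C (−0.24, SE 0.14) and ATP5J (−0.26, SE 0.17). With CT animal 4 left out they differed by −0.12, −0.07, −0.12 and −0.22, and SDHD, NDUFS6 and NDUFS1 by 0.20, 0.15 and 0.24. By gene, all 4 of complex II were higher, with a median of 0.32, and so were 25 of 33 of complex I. In complex IV 6 of 7 were lower, with a median of −0.038, and both genes of complex III were lower. Without CT animal 4 complex III turned to the other side (UQCRB 0.02, UQCR10 0.17), and complex IV had 4 higher and 3 lower with a median of 0.0087. All 4 genes of complex II were still higher then, with a median of 0.14, as were 30 of 33 of complex I. So were 67 of 80 member probe sets, where 53.1% of all probe sets were. Quantile normalization was not repeated in the fit without CT animal 4. The mean of all complex I genes, each centred on its own mean over 24 arrays, was 0.12 ± 0.10 (SD, n = 4) in CT-GE-RES and 0.012 ± 0.096 in CT. It lay between −0.081 ± 0.061 in AD-GE and 0.031 ± 0.041 in AD-GE-RES on the atherogenic diet.

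The difference between the enriched extract's effect on the atherogenic diet and on chow was tested itself. It called 0 of 80 members and 0% of all probe sets, with 44 members higher (50.2% of all probe sets) and 36 lower. The unadjusted p was under 0.05 for 4 members (3.12% of all probe sets), all lower: ATP5A1 (−0.36, SE 0.16), SDHD (−0.64, SE 0.29), NDUFAF1 b (−0.45, SE 0.20) and NDUFS3 a (−0.42, SE 0.19). On the higher side stood NDUFA1 b (0.54, SE 0.29), UQCRB (0.38, SE 0.23) and SDHB b (0.25, SE 0.16), each with a limma adjusted p of 1.000. Without CT animal 4 the split was 39 and 41 and 0 members had an unadjusted p under 0.05, where 424 of 17999 probe sets had one. In that fit ATP5A1 was at −0.30, SDHD at −0.42, NDUFAF1 b at −0.34, NDUFS3 a at −0.27, NDUFA1 b at 0.33, UQCRB at 0.17 and SDHB b at 0.20. The intervals were wide: 51.2% of members had a 95% interval within 0.5 of 0.

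Females and males differed in 0 of 80 members, where 0.267% of all probe sets were called. In females 43 members were higher (54.1% of all probe sets) and 37 lower, and 2 had an unadjusted p under 0.05 (10.3% of all). These were COX7C b (−0.25 in females, SE 0.10, adjusted p = 0.413 in limma) and ATP5SL (−0.31, SE 0.14, adjusted p = 0.463). NDUFB3 b and NDUFB3 a followed on the higher side with 0.13 (SE 0.06) and 0.12 (SE 0.06), then ATP5G1 with 0.13 (SE 0.07) and NDUFAB1 with 0.08 (SE 0.05). On the lower side NDUFV1 differed by −0.10 and ATP5J by −0.16. NDUFA1 a and NDUFB11, whose genes are X-linked in mammals and were looked at after the values were seen, were higher in females by 0.04 (SE 0.06) and 0.11 (SE 0.06) without passing the test.

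The difference between the sexes in AD against CT was tested in a fit with 12 diet and sex groups. It called 0 of 80 members, where 0.117% of all probe sets were called, with 15 members at an unadjusted p under 0.05 (14.9% of all probe sets). The difference was higher in females than in males for 48.7% of all probe sets. COX7A2, the widely expressed isoform of this cytochrome oxidase subunit, read 11.74 and 11.79 in the 2 male CT animals, 11.10 and 11.01 in the AD males, 10.94 and 11.33 in the CT females and 11.25 and 11.42 in the AD females. Both CT males thus lay above every other CT or AD animal. The difference was −0.71 (SE 0.17) in males and 0.20 (SE 0.17) in females, and the difference between these was 0.90 (SE 0.25, adjusted p = 0.129 in limma). By p, the next were ATP5L b (0.77 in males and −0.16 in females), NDUFB3 a (−0.47 and 0.01), NDUFA10 (0.89 and −0.28) and SDHC (0.77 and −0.34). NDUFB3 a, NDUFA10 and SDHC also had called slopes on the 3'/5' ratio, given below. Without CT animal 3 the test of the sexes called 8 members and 961 probe sets in all, but the CT males were then CT animal 4 alone, the array that stood apart, with its spread taken from the other groups. With any other single CT or AD animal left out it called 0 members. The 3'/5' ratios of the CT males were 3.24 and 4.39 and those of the AD males 1.51 and 2.93, and a fit that included the ratio also called 0 members.

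Slopes on the 3'/5' ratio were called for members of every complex but complex IV, where a missed threshold does not show that levels were unrelated to the ratio. A slope on the ratio, fitted with diet and sex in the model, was called by limma for 18 of 80 members, where 11.5% of all probe sets were called. Slopes were above 0 for 50 members and for 58.8% of all probe sets. Of the called members 10 fell as the ratio rose (8.29% of all probe sets) and 8 rose with it (3.24% of all). After repeated quantile normalization 10 fell and 20 rose, and after median centring 10 and 10, while the median slope of all probe sets went from 0.020 to 0.026 and 0.030. The count was 9 without CT animal 1 and 12 without CT animal 4. Shares of all probe sets called in these alternative fits are not given here, so their counts describe the members alone.

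Complex II stood on the falling side. SDHA b changed by −0.48 per unit of the ratio (SE 0.06, adjusted p = 6.2e-06 in limma), SDHC by −0.31 (SE 0.06), SDHD by −0.27 (SE 0.04) and SDHB a by −0.20 (SE 0.03). SDHA b read 6.18 in AD animal 3, whose ratio was 1.51, and 4.28 in CT animal 4. SDHD read 10.98 and 9.67 in the same animals. SDHA a and SDHB b had slopes of 0.03 (SE 0.04) and 0.02 (SE 0.04). For both genes the 95% intervals of the 2 slopes did not overlap; the difference between the slopes was not tested.

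The other members that fell were NDUFA10 (−0.34, SE 0.06), NDUFS6, a zinc-binding subunit of complex I (−0.33, SE 0.06), NDUFS3 b (−0.33, SE 0.07), ATP5D, the delta subunit of ATP synthase (−0.25, SE 0.04), ATP5SL (−0.33, SE 0.06) and ATP5L c (−0.29, SE 0.09). All of the 10 but ATP5L c were called in each of 31 alternative fits, and ATP5L c in 16. Those that rose were UQCR10 (0.20, SE 0.05) and UQCRB (0.19, SE 0.04), which are both of the complex III genes measured, then NDUFA1 b (0.23, SE 0.06), NDUFB1 (0.16, SE 0.04), NDUFB3 a (0.12, SE 0.03), NDUFB2 (0.12, SE 0.04), NDUFB4 (0.10, SE 0.03) and ATP5E (0.12, SE 0.04). The NDUFB genes encode accessory subunits of the membrane arm. These were called in 10 (ATP5E) to 30 (NDUFB1 and NDUFB3) of the 31 fits.

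**Figure D4:**
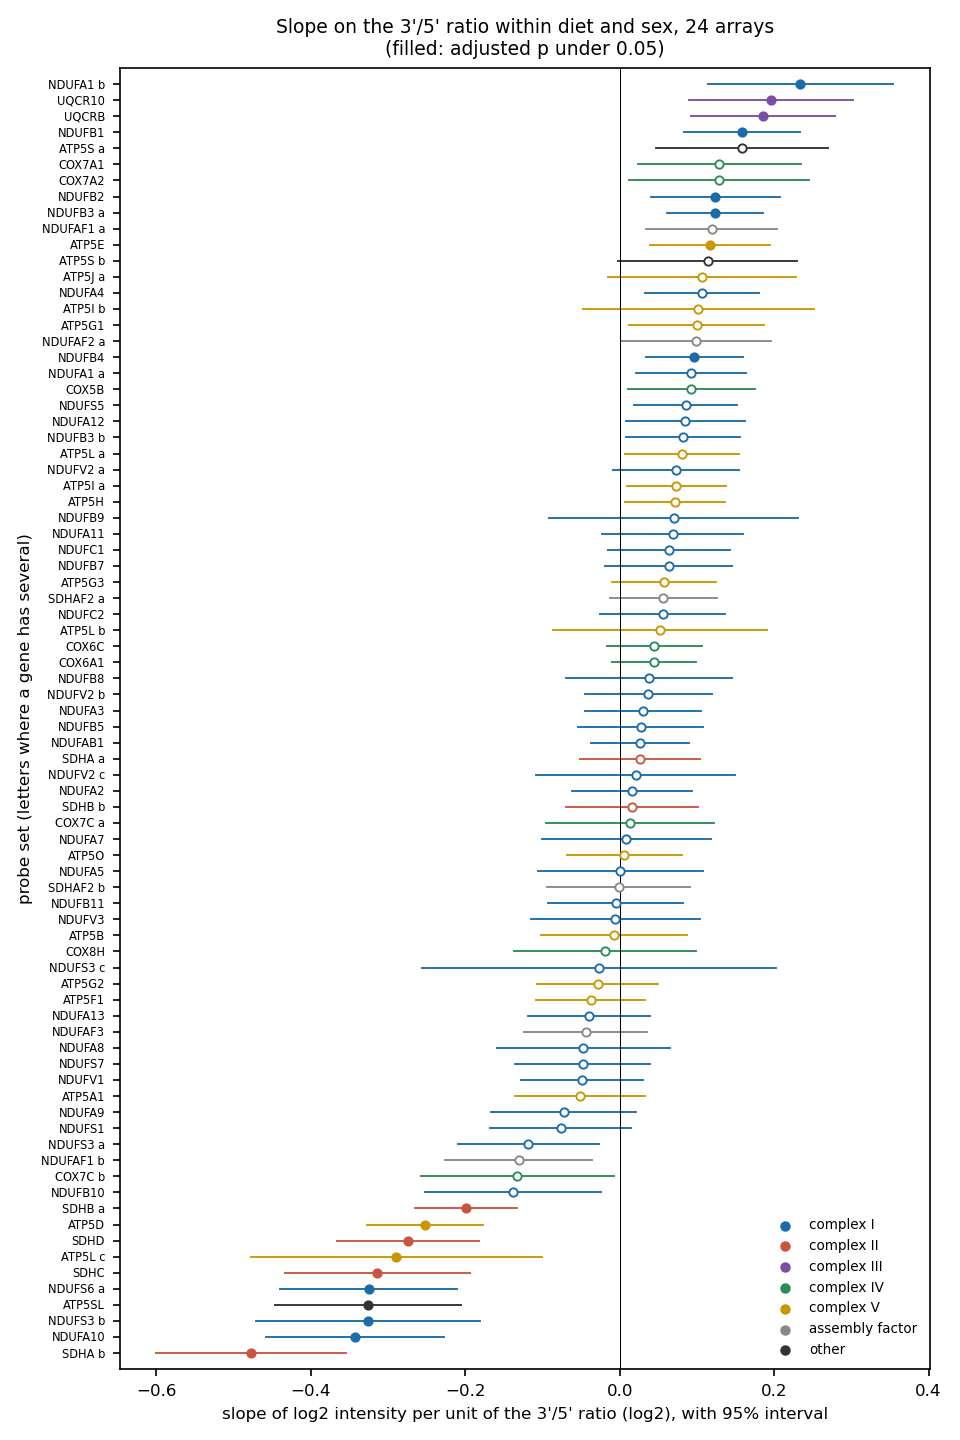
Slope of log2 intensity per unit of the 3'/5' ratio (horizontal axis) for the 80 member probe sets (rows), with 95% intervals; filled points have an adjusted p under 0.05. SDHA b has the steepest fall at −0.48, and both complex III genes lie on the rising side.

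**Figure D5:**
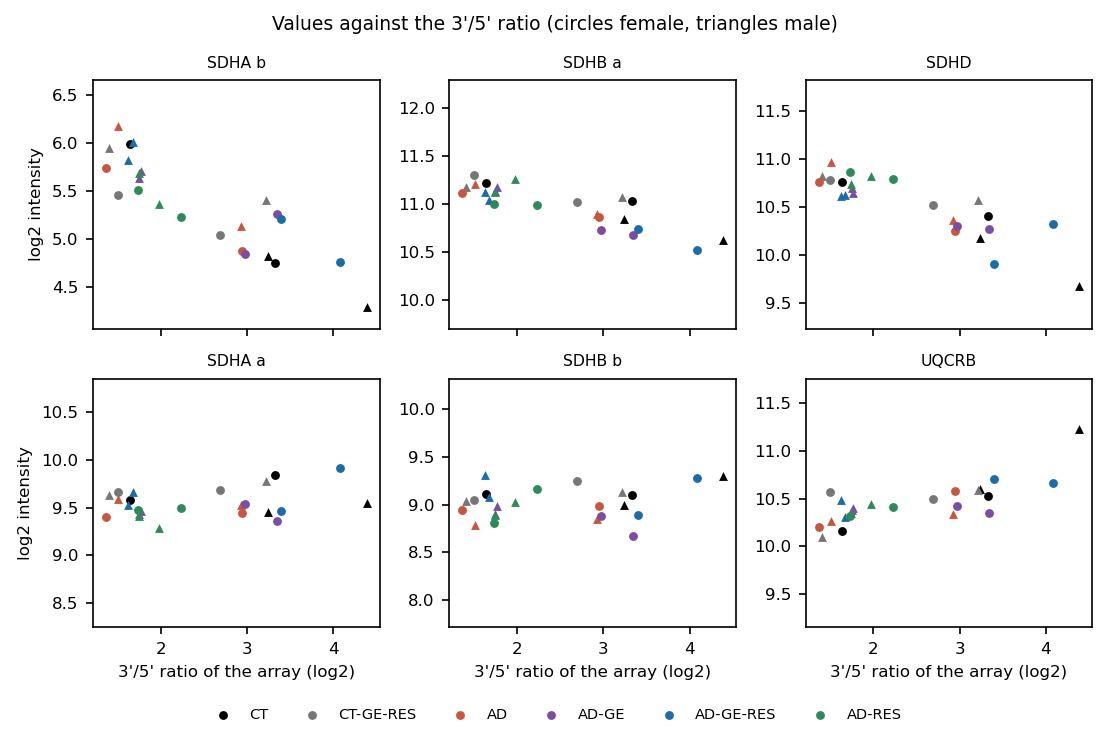
Log2 intensity (vertical axis) against the 3'/5' ratio of the array (horizontal axis) for 2 probe sets each of SDHA and SDHB and for SDHD and UQCRB, coloured by diet group, with circles for females and triangles for males; each panel spans the same height. The upper SDHA and SDHB probe sets and SDHD fall with the ratio, the lower SDHA and SDHB probe sets have slopes of 0.03 and 0.02, and UQCRB rises, with CT animal 4 at the far right.

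The T cell marker mean was −1.46, −0.58 and −0.82 in the 3 arrays with the highest ratios (CT animal 4 and AD-GE-RES animals 2 and 1) and 0.02, 0.63 and 0.37 in the 3 with the lowest (AD animal 2 and CT-GE-RES animals 4 and 1). Single T cell markers did not all follow this mean. In AD-GE-RES animal 2 CD2 read 8.09 and LCK 10.94, against 9.91 and 10.10 in AD animal 2. The part of cell makeup in the slopes was not tested.

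Members disagreed within genes as well. Of 12 genes with several tested probe sets, the signs of the differences were mixed for 7 in AD against CT, 5 in AD-GE against AD, 6 in AD-GE-RES against AD, 4 in AD-RES against AD and 4 in CT-GE-RES against CT. The slopes on the ratio had mixed signs for 6, among them SDHA, SDHB, COX7C and ATP5L.

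The subunits varied together between animals of a group, as a description of 24 arrays that share ratio, cell makeup and normalization. The median Pearson correlation of residuals, after diet and sex were removed, was 0.24 over 1711 pairs of subunit genes and 0.0040 over all pairs of 6034 tested genes. It was 0.25 within complexes and 0.24 between them. Within complex IV it was 0.44 over 21 pairs and within complex II 0.49 over 6. Complex II ran against complexes III and IV, with medians of −0.59 over 8 pairs and −0.41 over 28, while complexes III and IV ran together (0.58 over 14 pairs). After the 3'/5' ratio was removed as well, complex II with III had a median of 0.049 and with IV of −0.10, and subunits as a whole 0.29.

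Genes around the pathway, from lists of their known functions, were measured beside the members. None of 16 genes of the tricarboxylic acid cycle, 13 of glycolysis, 10 listed under assembly outside the rule, 9 carriers and uncoupling proteins, 7 listed under electron carriers, 7 mitochondrial antioxidants and 5 regulators of mitochondrial biogenesis passed the test in any of the 5 diet comparisons with limma. The electron carrier list held CYCS, ETFA, ETFB and ETFDH, and also COQ5, COQ6 and COQ9, which serve ubiquinone synthesis. The assembly list also held ATPIF1, an inhibitor of ATP synthase. Of the 67 genes in all lists, 1 had an unadjusted p under 0.05 in AD against CT (1.49%, where 6.38% of all probe sets had one), 8 in AD-GE against AD (11.9% and 6.09%), 0 in AD-GE-RES against AD (2.40% of all probe sets), 5 in AD-RES against AD (7.46% and 4.45%) and 9 in CT-GE-RES against CT (13.4% and 6.80%). With CT animal 4 left out, those in CT-GE-RES against CT were 2 of the assembly list and 1 of the tricarboxylic acid cycle. There 495 of 17999 probe sets had one. In AD against CT they were then 2 of glycolysis, where 947 of 17999 probe sets had one. The genes named here were chosen after their values were seen. In AD-GE against AD, CYCS (cytochrome c) differed by −0.47 (SE 0.17), UCP2, a mitochondrial carrier of the uncoupling protein family, by −0.45 (SE 0.18) and PDHB, of the pyruvate dehydrogenase complex, by −0.29 (SE 0.11). The tricarboxylic acid cycle list was lower in 13 of 16 there (median −0.092), where 51.4% of all probe sets were higher. In CT-GE-RES against CT, where 52.3% were, it was higher in 14 of 16 (median 0.092), as were all 7 genes of the electron carrier list (median 0.20). These were, with CT animal 4 left out, 13 of 16 (median 0.098) and 7 of 7 (median 0.18), where 53.1% of all probe sets were higher. In AD-RES against AD, UCP2 differed by −0.64 (SE 0.18) and the glycolytic enzymes ENO1 and PGK1 by −0.28 (SE 0.08) and −0.35 (SE 0.12). The slope on the 3'/5' ratio was called for 9 of the 67 genes (13.4%), all falling, where 11.5% of all probe sets were called and 8.29% were called and fell. They included TPI1 of glycolysis (−0.38, SE 0.04), ETFA, an electron carrier (−0.20, SE 0.05), and FH, the fumarase of the cycle (−0.16, SE 0.04). The 13 subunits encoded by mitochondrial DNA were not analysed here.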

How the data were processed

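Each array's deposited column holds a linear intensity for every probe set. RMA and GCOS were used, per the submitters' processing notes, which give neither a version nor the step each served. Array medians lay between 38.6 and 41.2, and precision is limited by how many arrays there are. All values were taken to log2 here; the authors' intensity values were otherwise used as deposited. Of 24123 probe sets, 124 controls were set aside, then the lowest 25% of the others by mean (under 3.57), which left 17999. Gene symbols came from the platform's annotation and were the same through RefSeq gene identifiers for all 83 members; 3 probe sets that list a matching symbol after another gene's were not members. Genome positions and sequences were not used here. limma 3.58.1 in R 4.3.3 fitted 6 group means and sex to 24 arrays (17 residual and 3.60 prior degrees of freedom), with two-sided tests and Benjamini-Hochberg adjustment over all 17999; called means an adjusted p under 0.05, and p-values measure the spread between animals. The script was tested on simulated data. Within-sex values are contrasts of 2 against 2 animals in the fit with 12 groups.

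Named members were fixed by rule: the smallest p-values in each direction of each comparison, all called members, and a fixed panel of core and accessory subunits. Members named for the test of sex by diet were picked outside this rule. A gene's level is its probe set with the highest mean, lettered a. The members and lists were chosen with earlier results of these data known. Alternatives were other filters, repeated quantile normalization, median centring, array weights, a trended prior, no sex term, only the groups compared, the 3'/5' ratio or 3 marker means in the fit, each sex alone, and each array left out. The test of sex by diet, fits without CT animal 4 with the ratio in them, and counts by complex and list without CT animal 4 were chosen after seeing the data.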

Additional observations from a re-analysis of the deposited data

Results flagged for a closer look

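Of 312 sets of 4 animals examined (52 values in each diet group), 12 held 1 animal far from the other 3 by Dixon's ratio of gap to range. Chance alone gives about 1 in 20 (5%), and 3.85% were found. In complex I these were NDUFS6 in CT animal 4 (6.34, the others 7.67 to 7.88), NDUFA5 in AD animal 3 (7.90, the others 7.31 to 7.35) and NDUFB4 in AD-RES animal 2 (11.22, the others 11.39 to 11.40). NDUFS3 stood apart as NDUFS3 c in AD-RES animal 1 (5.17, the others 4.47 to 4.52) and as NDUFS3 a in CT-GE-RES animal 1 (9.96, the others 9.57 to 9.62). NDUFB3 b read 9.35 in CT-GE-RES animal 4 and 9.53 to 9.57 in the others. COX7C of complex IV read 11.11 in AD animal 4 and 11.52 to 11.55 in the others.

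In complex V, ATP5G1 read 10.09 in AD animal 4 (the others 10.34 to 10.37) and 10.37 in AD-RES animal 1 (the others 10.08 to 10.13), and ATP5I read 8.66 in AD-RES animal 2 (the others 8.80 to 8.81). Among the assembly factors, NDUFAF1 b read 4.94 in AD animal 3 (the others 4.52 to 4.54) and SDHAF2 a read 7.48 in CT-GE-RES animal 1 (the others 7.68 to 7.70). These values were spread over 7 arrays, with 2 values each from 5 of them.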

How the results depend on the processing

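Across the alternatives, 0 members were called in the 5 diet comparisons, the F test, the extract by diet and the sexes, with each array left out included. The called slopes on the 3'/5' ratio numbered 30 after repeated quantile normalization, which kept all 18, and 9 (without CT animal 1) to 20 (without CT-GE-RES animal 1) with 1 array left out. Shares of all probe sets called in those fits are not given here. The sex by AD against CT test called 0 to 8 with 1 array left out, 8 without CT animal 3, where CT animal 4 was the only CT male. The median co-variation with the ratio also removed was 0.29 over subunits, 0.33 within and 0.27 between complexes, 0.049 (reversed) for complex II with III and −0.10 for II with IV. The assembly factor level in AD-GE was −0.0060 with all probe sets of a gene averaged. Counts at an unadjusted p under 0.05 moved by over 1.5 times in 110 settings and not in 131. Of the named differences, 1987 values kept their direction and 11 reversed. Within females AD against CT gave −0.16 for ATP5L b, −0.083 for SDHD and 0.012 for NDUFB3 a, AD-GE against AD −0.25 for ATP5L c and −0.035 for NDUFAF3, and CT-GE-RES against CT 0.062 for COX7C. Within males AD-GE-RES against AD gave 0.036 for SDHB a, and AD-RES against AD −0.076 for NDUFA5 and 0.020 for NDUFV3. ATP5J in CT-GE-RES against CT was 0.036 with the marker means in the fit, and NDUFS6 in AD against CT −0.073 without CT animal 4 and with the ratio in the fit. The cause of these changes was not tested. No paired analysis was possible because the labels give each pig its own number and share none between groups. With 4 animals a group, 95% intervals leave room for differences over 0.5 in a share of members, so a missed threshold does not show that levels were equal.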
